A study of Mastomys natalensis with 4 samples.

Results

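The genes described here are those of lymphocytes: the T cell receptor complex, its coreceptors and kinases, the granule proteins of killer cells, and the receptor, signalling and antibody genes of B cells and plasma cells. They were chosen by name from a list of 39 mouse genes, and a probe set was counted as a member when the platform annotation gave it exactly 1 of those symbols. The annotation named 36 of the 39, 19 of T and natural killer (NK) cells and 17 of B and plasma cells, out of 8251 genes named on the array. They are read by 64 probe sets. Lck, Nkg7 and Lyn had no probe set with a single symbol and were not analysed here.

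The samples are gastric mucosa, as total RNA, of the rodent Mastomys natalensis. They had been measured on an Affymetrix mouse U74 array. Every animal received loxtidine (written loxitidine in the labels), a histamine H2 receptor blocker. In 2 samples the drug was given for 16 weeks, a stage labelled neoplasia of enterochromaffin-like (ECL) cells, the histamine-storing endocrine cells of the acid-secreting stomach, and in 2 samples for 8 weeks, labelled hyperplasia of those cells. Treatment time and lesion stage cannot be told apart, and no untreated mucosa was analysed here. Nothing in the labels tells if 2 samples of a stage are 2 animals; the p-values below therefore reflect only how these samples scatter, and that scatter may be technical. The probes carry mouse sequence, and mismatch to Mastomys RNA dims each probe set by its own amount. A dim reading is therefore not evidence that a transcript is missing, and levels of different genes are not compared.

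Lymphocytes of the stomach lie between the epithelial cells and in the tissue beneath them, singly or in follicles. A T cell reads antigen through its receptor, whose CD3 and zeta chains pass the signal to the kinases Lck, Fyn and Zap70 and to the adaptor Lat. A B cell does the same through a surface antibody held by the Cd79a and Cd79b chains, with the kinases Lyn, Blk and Btk and the adaptor Blnk behind them. Plasma cells, their antibody-secreting descendants, depend on the factor Xbp1 and add the J chain (Jchain) that joins secreted antibody units. Several members are not private to lymphocytes: Fyn is widely expressed, Xbp1 serves other secretory cells, Thy1 marks fibroblasts and nerve as well, and Btk and Lat2 are also used by myeloid or mast cells.

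Whole arrays differed in ways that touch dim genes. The arrays' median intensities were 19.2 and 18.9 after 16 weeks and 15.45 and 17.3 after 8 weeks. A floor was set at 12.15 (exceeded by 55.3% to 62.4% of probe sets, depending on the array), the median over the arrays of the 40th percentile. Probe sets above it on at least 2 arrays, 7883 in all, were tested with limma on floored log2 values. Each difference is on the log2 scale, 16 weeks minus 8 weeks, and carries limma's standard error (SE, n = 2 samples in each group). That error draws each probe set's variance towards the one typical of all tested probe sets, so it is not the scatter of the 4 values alone. Over all tested probe sets the median difference was 0.09, and 56.3% were positive. Divided into 4 equal bands by brightness, the dimmest band had a median of 0.19 and the brightest -0.13. After adjustment (Benjamini-Hochberg) limma called 0 of 7883, which is 0%, while 1100 had an unadjusted p below 0.05. The 8-week sample 1 stood apart in the goblet cell peptide Tff3. Tff3 read 15.7 and 13.2 after 16 weeks, and 493 in that sample and 17.8 in the other after 8 weeks. The antral hormone gastrin (Gast) was highest in the same sample but separated the stages as well, at 2.7 and 26.8 after 16 weeks and 889 and 182 after 8 weeks. The part of the region sampled in the lymphocyte differences was not tested.

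Most lymphocyte genes read low on these arrays, and what differed between the stages leaned towards 16 weeks without any member passing the test. In bulk mucosa a change in the number of lymphocytes and a change in RNA per lymphocyte cannot be told apart. Of the 64 probe sets 32 were tested (50%, against 63.5% of all probe sets), which covered 22 of the 36 genes. A further 25 lay at or under the floor on all 4 arrays. Limma's adjusted p for the tested member probe sets was 0.309 or more, so 0 passed. Without adjustment 6 of the 32 had p below 0.05, all higher at 16 weeks (Cd4, Gzmb, Blk, 2 sets of Ms4a1 and 1 of Ighm). That is 18.8%, beside 8.08% of all tested probe sets higher and 5.87% lower at that level. Among the 32, 7 sets, 1 of the Ms4a1 sets included, entered the test only through their 16-week values and could only come out higher. With the test limited to sets above the floor on all 4 arrays, 4 of 17 members were higher at that level (23.5%, against 7.13% of all such sets). The count of members higher at that level depended on the processing. It was 3 of 31 (9.68%) after quantile normalization and on a common median, where 6.55% and 4.35% of all tested sets were higher, and 3 of 32 (9.38%, against 7.83%) with an intensity trend in limma's prior. A lower floor gave 9 of 49 (18.4%, against 8.61%), no filter 4 of 64 (6.25%, against 5.8%) and alignment on hybridisation controls, added after seeing the data, 14 of 34 (41.2%, against 30%). With a sample left out it lay between 1 of 24 (4.17%, against 4.82%), without 16-week sample 2, and 4 of 31 (12.9%, against 8.89%), without 8-week sample 2.

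In 17 of the 32 tested sets both 16-week values lay above both 8-week values, and in 0 below, beside 28.7% and 20.6% of all tested probe sets. Nothing is read from that count, since 7 of the 17 had both 8-week values under the floor and entered the test only through their 16-week values, so that they had to lie higher.

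The unfiltered values do not depend on that filter. With untested sets included, 36 of the 64 member probe sets (56.2%) lay wholly higher at 16 weeks, and 1 lay wholly lower. Over all 12422 probe sets other than controls those shares were 32.5% and 15.5%. Among the 32 too dim to be tested 19 lay wholly higher (59.4%) and 1 wholly lower, where 39.1% and 6.54% of all untested probe sets did. Among the 17 member probe sets above the floor on all 4 arrays, 15 had a positive difference (88.2%), beside 52.2% of the 5698 such probe sets on the array. Of the 17, 7 lay wholly higher (41.2%) and 0 wholly lower, where 25.1% and 23.6% of the 5698 did. With quantile normalization 22 of the 64 (34.4%) lay wholly higher and 4 wholly lower, against 22.2% and 22.5% of all probe sets.

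**Figure D1:**
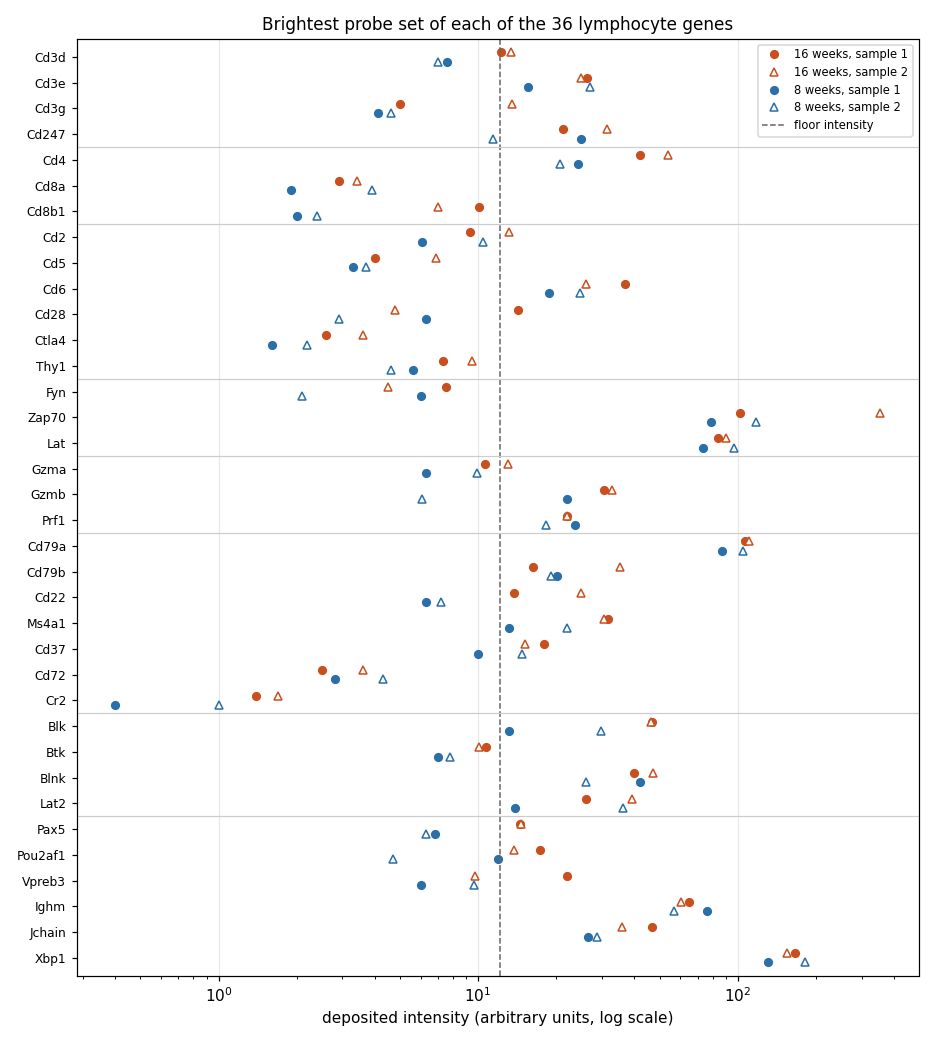
Deposited intensity (log scale) of the brightest probe set of each of the 36 genes, with 16-week samples in orange above 8-week samples in blue, in the order of the roles given in the text and with a dashed line at the floor of 12.15. Cd4 and Blk show the 16-week points right of the 8-week points, whereas Lat, Prf1 and Xbp1 show them intermixed, and many genes lie left of the floor.

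In the T cell receptor complex the readings were low and close. Cd3e, a signalling chain of CD3, read 26.3 and 25 after 16 weeks and 15.5 and 27 after 8 weeks, a difference of 0.33 ± 0.34 (SE). Its 8-week samples span the 16-week ones, and the difference was -0.07 without 8-week sample 1. Cd247, the zeta chain with most of the complex's signalling motifs, read 21.2 and 31.4 after 16 weeks and 24.8 and 11.4 after 8 weeks (0.57 ± 0.43), again with overlap. Cd3d read 12.2 and 13.4 after 16 weeks, just over the floor, and 7.6 and 7 after 8 weeks, under it. With the 8-week values set to the floor this is at least 1.05-fold higher. Cd3g was not tested, at 5 and 13.5 against 4.1 and 4.6. The second probe sets of Cd3d and Cd247 stayed under the floor in every sample.

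Cd4, the coreceptor of helper T cells that binds MHC class II, had the smallest p of all members. Its probe set (103480_at) read 42.1 and 54 after 16 weeks against 24.2 and 20.7 after 8 weeks. Both later samples exceeded both earlier ones, by 1.09 ± 0.26 on the log2 scale or 2.13-fold (limma adjusted p = 0.309). Left out one at a time, the samples moved that difference no further than 0.91 to 1.27. The coreceptor of cytotoxic T cells gave no measurement: Cd8a read 2.9 and 3.4 after 16 weeks and 1.9 and 3.9 after 8 weeks, and Cd8b1 10.1 and 7 against 2 and 2.4. Both Cd8b1 values at 16 weeks were the higher ones, but all 4 lie under the floor.

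Of the 6 surface and costimulatory genes 1 could be tested. Cd6, a receptor that tunes T cell activation, read 36.7 and 26 after 16 weeks and 18.7 and 24.6 after 8 weeks (0.53 ± 0.30). The groups touch without overlapping. A second Cd6 probe set stayed under the floor, at 3.7 and 1.6 against 1.7 and 2.3, with overlap. The adhesion receptor Cd2, the inhibitory receptor Cd5, the costimulator Cd28, its inhibitory relative Ctla4 and the surface glycoprotein Thy1 reached the floor on at most 1 array, with their highest value at 14.3 for Cd28 in 16-week sample 1. Cd5, Ctla4 and Thy1 did not overlap between the groups, with the 16-week values higher; Cd2 and Cd28 overlapped.

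Of the receptor's kinases and adaptor neither tested set separated the stages. Lat, the membrane adaptor phosphorylated by Zap70, read 83.7 and 89.9 after 16 weeks, within the 73.3 and 96.4 of the 8-week samples (0.05 ± 0.26). Zap70 itself depends on which probe set is read. The brightest, 93663_r_at, read 102 and 354 after 16 weeks and 78.6 and 117 after 8 weeks (0.99 ± 0.63), a difference carried by 16-week sample 2. The other Zap70 probe sets were not tested, at 9.1 and 8.1 against 4.2 and 13.3 and at 11.6 and 10.9 against 4.6 and 7.4, the last without overlap but under the floor in every sample. The suffix r marks a set whose probes did not meet all of the maker's design rules. Fyn read between 2.1 and 7.5 in all samples.

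Among the granule genes of killer cells Gzmb gave a larger difference than Prf1, again without a test of the contrast. Gzmb, the protease granzyme B that triggers death of target cells, read 30.6 and 32.7 after 16 weeks against 21.9 and 6.1 after 8 weeks. The later samples agree closely and exceed both earlier ones, which differ widely from each other (0.96 ± 0.35, limma adjusted p = 0.349). Leaving out 8-week sample 2 gave 0.53, and leaving out sample 1 of that stage 1.38. Prf1, the pore-forming perforin that lets granzymes in, read 21.9 and 22 after 16 weeks, inside the range of 23.7 and 18.3 after 8 weeks (0.08 ± 0.26, and -0.12 after quantile normalization). Gzma, a second granzyme, read 10.6 and 13 against 6.3 and 9.9 and was not tested.

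**Figure D2:**
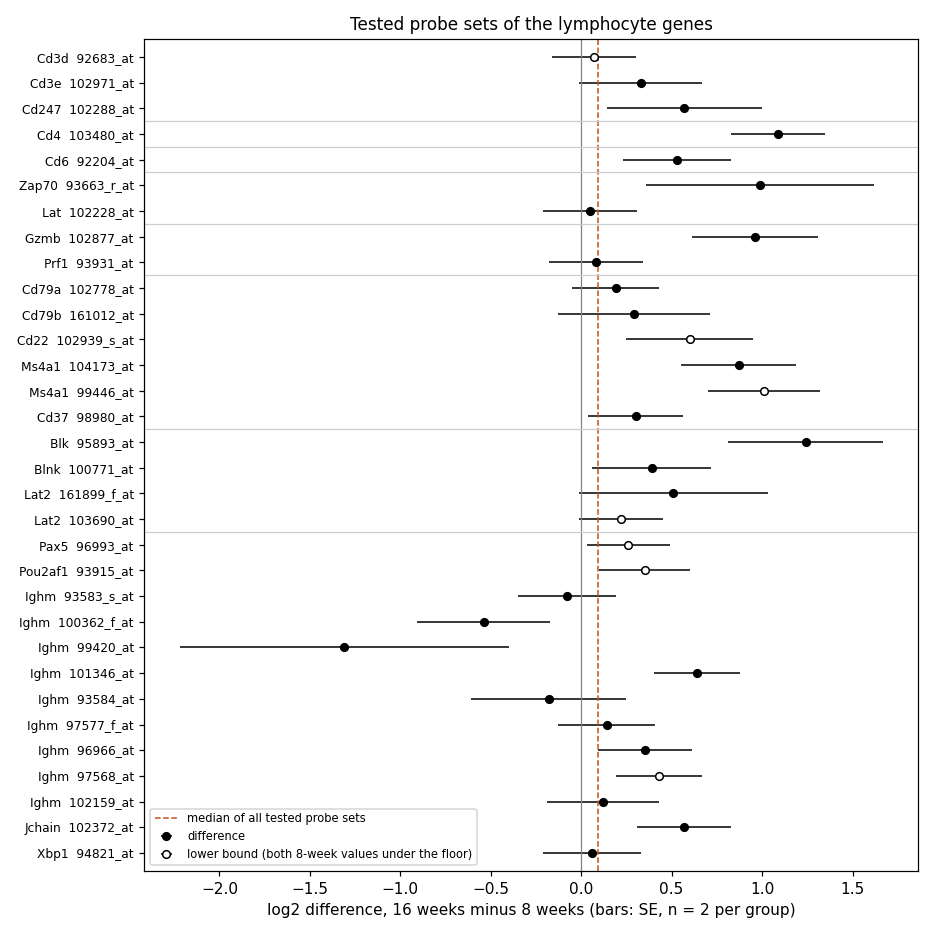
Log2 difference, 16 weeks minus 8 weeks, of the 32 tested probe sets with SE bars (n = 2 per group), lines between roles, and open circles where both 8-week values lay under the floor so that the point is a lower bound. Cd4 at 1.09 and Blk at 1.24 lie farthest right, 4 Ighm probe sets lie left of 0, and the dashed line is the median of all tested probe sets, 0.09.

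On the B cell surface the antigen CD20 gave larger differences than the receptor chains, a contrast that was not itself tested. Ms4a1, which encodes CD20 of mature B cells, has 2 probe sets. The brighter (104173_at) read 31.7 and 30.6 after 16 weeks against 13.2 and 21.9 after 8 weeks (0.87 ± 0.32, 1.83-fold, limma adjusted p = 0.349). The other (99446_at) read 30.6 and 19.5 against 3.1 and 7.1. Neither set overlaps between the groups, and the second, whose 8-week values are both under the floor, was at least 2.01-fold higher (limma adjusted p = 0.326). That second set entered the test only through its 16-week values and could only come out higher. The brighter set gave 0.51 when 8-week sample 1 was left out and 1.24 when sample 2 of that stage was.

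The receptor's signalling chains differed little. Cd79a read 106.5 and 110.7 after 16 weeks and 86.9 and 104.8 after 8 weeks, a gap smaller than the spread of the 8-week samples (0.19 ± 0.24, and -0.04 when the arrays were given a common median). Cd79b read 16.2 and 35.3 after 16 weeks, on either side of the 20.2 and 19 after 8 weeks (0.29 ± 0.42). Its sign rests on 16-week sample 2, without which it was -0.27. Cd22, an inhibitory lectin of B cells, read 13.7 and 24.8 after 16 weeks against 6.3 and 7.2 after 8 weeks, at least 1.52-fold higher (limma adjusted p = 0.475). Cd37, a tetraspanin of mature B cells, read 17.9 and 15.2 against 10 and 14.8 (0.30 ± 0.26). The inhibitory receptor Cd72 and the complement receptor Cr2 stayed at 4.3 or less in all samples.

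Blk, a Src-family kinase of the B cell lineage, had the largest measured positive difference of the tested members. Its brighter probe set (95893_at) read 46.8 and 46.4 after 16 weeks against 13.2 and 29.6 after 8 weeks. The 16-week samples were nearly equal, while the 8-week samples lay far apart, both below them. The difference was 1.24 ± 0.43, or 2.36-fold (limma adjusted p = 0.343), and it ranged from 0.65 with 8-week sample 1 left out to 1.82 with sample 2 of that stage left out. The second Blk probe set read 6 and 6.3 against 3.8 and 3.4, in the same direction but under the floor. Btk, the kinase whose loss blocks B cell development, did likewise on both of its probe sets, at 10.7 and 10.1 against 7 and 7.8 and at 9.1 and 9.9 against 5.7 and 6.3.

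The adaptors gave smaller differences. Blnk, which links the receptor's kinases to calcium signalling, read 39.8 and 47.3 after 16 weeks and 42 and 26 after 8 weeks, with overlap (0.39 ± 0.33). A second Blnk probe set was too dim to test, at 13.4 and 9.3 against 8.1 and 3.4, without overlap. Lat2, an adaptor of B cells and mast cells, read 26 and 39.3 against 13.9 and 36 on one probe set, with overlap (0.51 ± 0.52, and -0.17 without 8-week sample 1). Its other probe set (103690_at) read 14.2 in both 16-week samples and 3.6 and 4.2 after 8 weeks, at least 1.17-fold higher (limma adjusted p = 0.656). When all probe sets were tested with no filter this was the only member set that passed (limma adjusted p = 0.0461), with a log2 difference of 0.22 in both fits. After flooring both groups hold equal values, so that the spread within each is 0.

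Transcription factors of the B lineage were read near the floor. Pax5, which holds B cell identity, read 14.5 and 14.6 after 16 weeks and 6.8 and 6.3 after 8 weeks, at least 1.20-fold higher (limma adjusted p = 0.606), and 6.6 and 9.4 against 4.1 and 5.9 on its second probe set. Pou2af1, a coactivator of antibody genes, read 17.3 and 13.8 against 11.9 and 4.7, at least 1.27-fold higher (limma adjusted p = 0.542). Its second probe set was the single member set that lay wholly lower at 16 weeks, at 2.4 and 1.5 against 5.7 and 4.3, under the floor throughout. Vpreb3, a pre-B cell protein, reached the floor only in 16-week sample 1, at 22, with 9.7 in sample 2 and 6 and 9.6 after 8 weeks. A second Vpreb3 probe set stayed under the floor throughout, at 7.4 and 2.9 against 1.2 and 2.8.

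Of the plasma cell genes Jchain gave a larger difference than Xbp1, a gap that was not tested. Jchain (102372_at) read 46.8 and 35.9 after 16 weeks against 26.6 and 28.8 after 8 weeks. The groups do not overlap and the difference was 0.57 ± 0.26, or 1.48-fold (limma adjusted p = 0.394). Xbp1 read 167 and 154 after 16 weeks, inside the 131 and 181 of the 8-week samples (0.06 ± 0.27). Xbp1 serves the secretory endoplasmic reticulum of many cell types. In 5 of 7 tested genes for its chaperones and other proteins the difference was negative, beside 55.3% positive among all tested genes. The median of the 7 was -0.65, beside 0.07. Summed over those 7 genes the intensity was 911 and 795 after 16 weeks and 1220 and 1680 after 8 weeks. None passed limma's test.

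The mu heavy chain of antibody, Ighm, is read by 16 probe sets, made from different sequence accessions; antibodies share the constant part of the chain and differ in the variable part. The sets did not move together. Of 9 tested, 5 had a positive and 4 a negative difference. The brightest (93583_s_at) read 64.8 and 60.4 after 16 weeks, within the 76.3 and 57 after 8 weeks (-0.08 ± 0.27). The set with the smallest p (101346_at) read 22.1 and 25 against 14.6 and 15.6 without overlap (0.64 ± 0.24, limma adjusted p = 0.349).

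A single sample set the largest Ighm difference. Probe set 99420_at read 5.3 and 13.8 after 16 weeks, and 85.2 in sample 1 but 5.8 in sample 2 after 8 weeks (-1.31 ± 0.91). The second brightest, 100362_f_at, was also highest in 8-week sample 1, at 25.4 and 37.6 after 16 weeks and 57.7 and 34.8 after 8 weeks (-0.54 ± 0.37). That sample is the one with the high Tff3 reading. In 7 of the 16 Ighm sets the 16-week values were wholly higher and in 0 wholly lower, 4 of those 7 below the floor on all arrays. The 7 are 43.8% of the Ighm sets, beside 32.5% of all probe sets, and among the tested ones 3 of 9 (33.3%) lay wholly higher, close to the 28.7% over the array. Antibody probe sets can share sequence with one another, the suffix f marking sets that match a gene family, so these counts are not 16 separate measurements. A further 3 probe sets were annotated to several heavy chain genes at once and stay unnamed. The brightest of them read 446.5 and 503.9 after 16 weeks and 273.5 and 375.4 after 8 weeks, without overlap (0.57 ± 0.28), another gave -0.41 ± 0.30 with overlap, and the last was too dim to test.

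**Figure D3:**
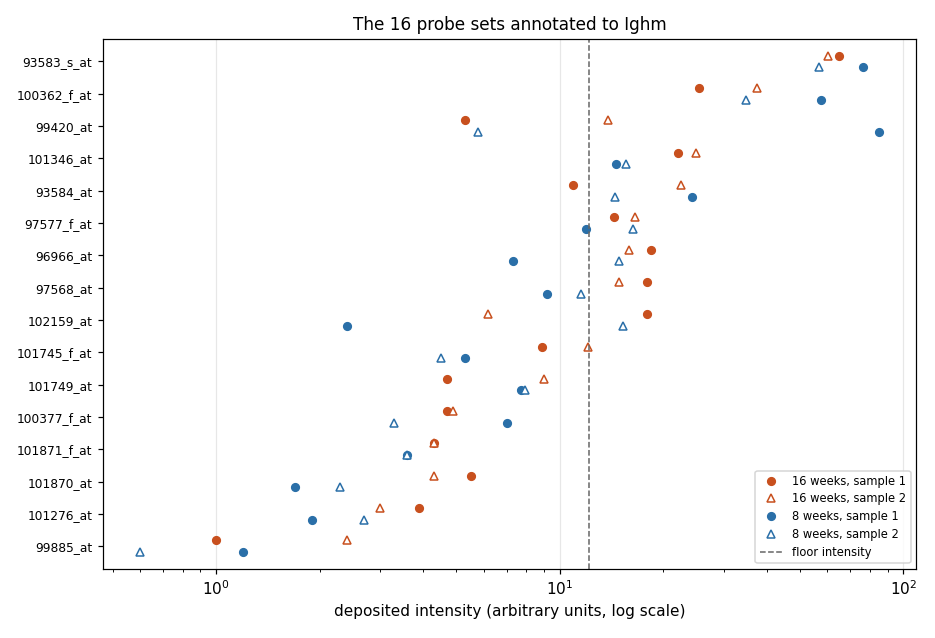
Deposited intensity (log scale) of the 16 probe sets annotated to Ighm, brightest on top, with 16-week samples in orange above 8-week samples in blue and the floor of 12.15 dashed. The filled blue point at 85.2 is 8-week sample 1 on 99420_at, and the 4 brightest sets differ in direction.

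Counted per gene by its brightest tested probe set, 9 of 9 T and NK cell genes and 12 of 13 B and plasma cell genes had a positive difference, beside 55.3% of the 5864 genes tested. The medians were 0.53 and 0.35, beside 0.07. These counts are a description of the genes that passed the filter: 7 of the 32 tested probe sets had both 8-week values under the floor, and a set that enters that way had to differ upwards. With only genes above the floor on all 4 arrays, the medians were 0.43 over 6 T and NK cell genes and 0.39 over 9 B and plasma cell genes, and with no filter they were 0.07 over 19 and 0.30 over 17. The T and NK median was 0.33 without 8-week sample 1 and also 0.33 without 16-week sample 2.

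How the arrays are scaled shifts all genes together. Placing the arrays on a common median moved the median of all tested probe sets to -0.11, and aligning them on 9 bacterial and phage hybridisation controls, an alternative added after seeing the data, moved it to 0.54. Relative to that median the T and NK genes lay at 0.44 as deposited, 0.45 on a common median, 0.37 after quantile normalization and 0.45 on the controls. The B and plasma genes lay at 0.26, 0.28, 0.21 and 0.23.

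**Figure D4:**
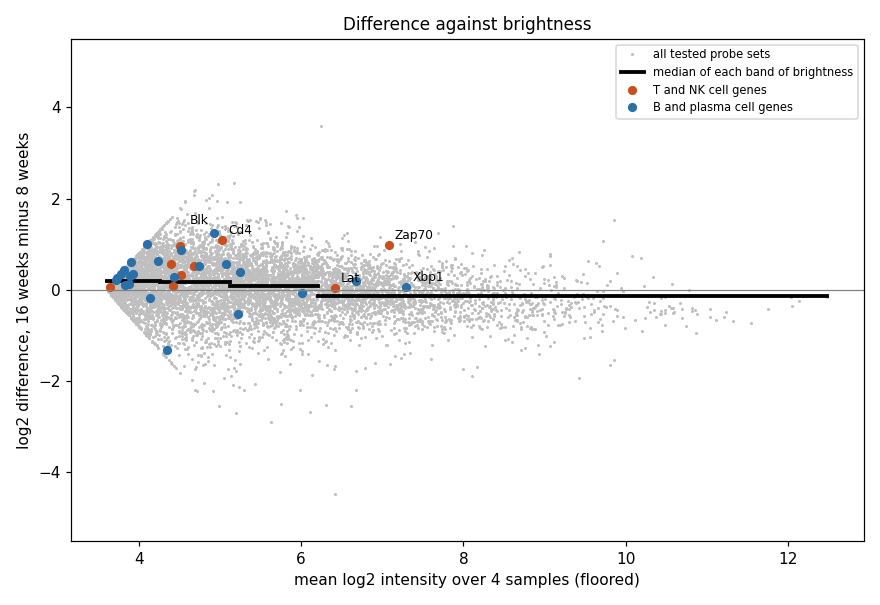
Log2 difference, 16 weeks minus 8 weeks, against mean floored log2 intensity for the 7883 tested probe sets in grey, with T and NK cell genes in orange, B and plasma cell genes in blue and bars at the median of each of 4 bands of brightness. The bars step down to -0.13 in the brightest band, and most lymphocyte points lie in the 2 dimmer bands, with medians of 0.19 and 0.18.

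Brightness is part of the background for these genes. Of the tested member probe sets 13 lay in the dimmest band of all tested sets and 12 in the next, with mean intensities up to 35. In that next band 6 of the 12 member sets were wholly higher at 16 weeks, beside 30.6% of all sets there, and 4 had an unadjusted p below 0.05 in that direction, beside 12.8%. In the third band 0 of the 3 member sets were wholly higher, beside 28.8%, and 1 had a positive and 2 a negative difference. In the brightest band 1 of the 4 members, Cd79a, was wholly higher, beside 18.1%. The dimmest band gave 10 of 13, beside 37.2%, but holds the sets that entered through their 16-week values.

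Other lymphocyte genes, outside the member list, were read in the same way. Of 20 tested T and NK cell genes 16 had a positive difference, beside 55.3% of all tested genes. The median of the 20 was 0.33, beside 0.07. The 16 include a gene that entered the test only through its 16-week values and had to come out higher. Of the 20, 2 (Lef1 and Il7r) had an unadjusted p below 0.05, a share near the 8.08% of all tested probe sets. Lef1, a T cell transcription factor that also acts in Wnt signalling of epithelium, read 259 and 251 after 16 weeks against 77.9 and 146 after 8 weeks (1.26 ± 0.37). Il7r, the receptor for the survival cytokine IL-7, read 24.7 and 21 against 13.2 and 14.1 (0.74 ± 0.24). Neither overlaps between the groups, and limma's adjusted p was 0.325 and 0.333.

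Of 27 tested genes listed for B and plasma cells 20 had a positive difference, beside 55.3% of all tested genes. The list includes Pigr and others that are not private to those cells. The median of the 27 was 0.20, beside 0.07. The 20 include Cd83 and others that entered the test only through their 16-week values and had to come out higher. Of the 27, 3 higher and 1 lower had an unadjusted p below 0.05, beside 8.08% and 5.87% over the array. Ikzf1, the lymphoid factor Ikaros, read 33.6 and 33.9 after 16 weeks against 13.7 and 19.1 after 8 weeks (1.06 ± 0.27). Cd83, an activation marker of B and dendritic cells, read 24 and 22.2 against 4.5 and 5.6, at least 1.90-fold higher, and Vpreb1, a surrogate light chain of pre-B cells, 40 and 46.9 against 24.2 and 20.4 (0.96 ± 0.25). Bcl6, the factor of germinal centre B cells that epithelial and other cells also express, had the opposite direction at 46.1 and 40.3 against 85 and 66.3 (-0.80 ± 0.26). Each of the 4 had a limma adjusted p of 0.309 or 0.333.

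Genes listed as common to white blood cells gave 11 of 13 positive differences, beside 55.3% of all tested genes. Their median was 0.46, beside 0.07. The annotation named 19 genes of this list, and those outside the 13 were too dim to test. Of the 13, 4 had an unadjusted p below 0.05, all higher, beside 8.08% over the array. The lysosomal protein Laptm5 read 70.1 and 76.5 after 16 weeks against 41.1 and 45.5 after 8 weeks (0.76 ± 0.24), and the actin-bundling Lcp1 26.1 and 36.3 against 19 and 9.8 (1.02 ± 0.34). The phosphatase Inpp5d gave 1.16 ± 0.43. Limma's adjusted p lay between 0.329 and 0.349 for these 3. The defining gene of the class, Ptprc (CD45), had 3 probe sets that read at most 3.5 in any sample and gave no measurement.

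Markers of other immune cells were compared because some members are not restricted to lymphocytes. Of the macrophage markers 2 of 6 tested had a positive difference, with a median of -0.06, and their summed intensity was 284 and 298 after 16 weeks and 277 and 304 after 8 weeks. The stages overlap in these sums. Single markers went both ways. Msr1, a scavenger receptor, gave 0.65 ± 0.25 and Fcgr1, an antibody receptor, 0.65 ± 0.26, whereas Lyz2, lysozyme, gave -0.80 ± 0.33. None of these overlapped between the groups. The part of macrophages in the Cd4 reading was not tested. Mast cell markers had a median of 0.35 over 4 tested genes, with summed intensities of 140 and 137 against 85.9 and 129, and neutrophil markers 0.30 over 5, with 197 and 208 against 163 and 165. The mast cell genes Kit, Fcer1a, Mcpt1, Mcpt2 and Mcpt4 were too dim to test, as were Adgre1, Mrc1 and Marco of macrophages and S100a9 and Ngp of neutrophils. The part of mast cells in the Lat2 readings was not tested.

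Gastric epithelium markers ran the opposite way. Of 10 tested 9 had a negative difference, where 55.3% of all tested genes and 39.6% of probe sets in the brightest band had a positive one. The median of the 10 was -0.43, beside -0.13 in that band. Their summed intensity was 13524 and 12163 after 16 weeks and 15605 and 16836 after 8 weeks. Fibroblast markers were split, 3 of 6 each way, with a median of -0.24 and sums of 2017 and 1952 against 3235 and 2724. Nerve and glia markers had 2 of 5 positive and a median of -0.13. Intensities of bright sets were lower at 16 weeks on the array as a whole, and the part of tissue composition in the lymphocyte differences was not tested.

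**Figure D5:**
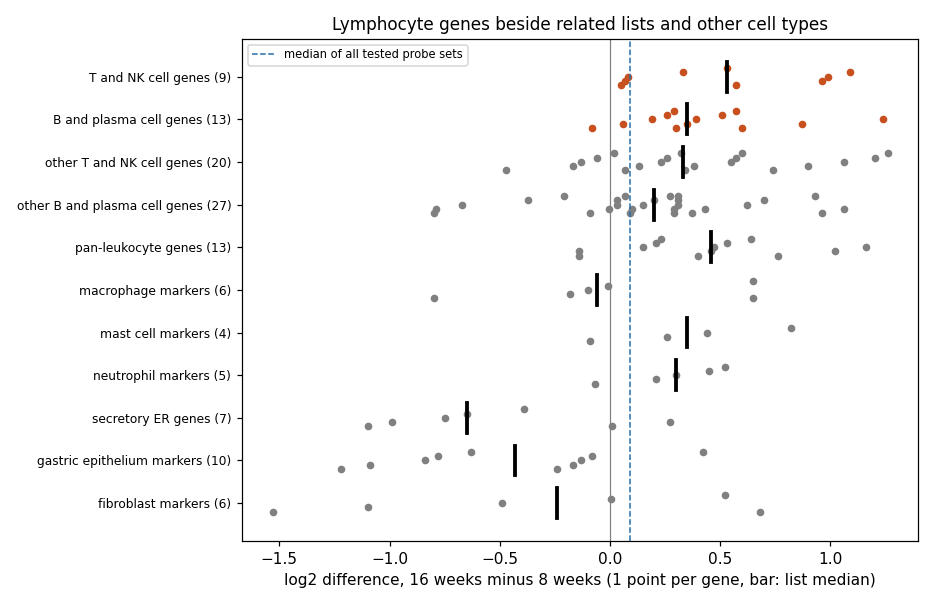
Log2 difference, 16 weeks minus 8 weeks, of each tested gene (1 point per gene, brightest probe set) in the member lists in orange and in related and other cell type lists in grey, with the number of genes in brackets and a bar at the median. Medians of the lymphocyte and pan-leukocyte lists lie between 0.20 and 0.53, and those of mast cell and neutrophil markers, 0.35 and 0.30, lie in that range. The median was -0.06 for macrophage markers, -0.24 for fibroblast markers, -0.43 for gastric epithelium and -0.65 for secretory endoplasmic reticulum genes.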

How the data were processed

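The table holds 1 deposited intensity per probe set and array, 12488 probe sets with 66 controls, on a linear scale. The step from scan to intensity, and any scaling by the authors, are not given here in labels or headers. Trimmed means (2% off each end) of the columns lay within 4.76% of their mean, so the deposited scale was kept. Groups came from the labels' descriptions. The platform annotation, which can be old, gives a single symbol to 10833 of the 12422 remaining probe sets and several to 396, leaving 1193 unnamed here.

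Intensities under 12.15 were set to that floor and log2 was taken. Probe sets above it on at least 2 arrays were fitted with limma (version 3.58.1, R 4.3.3; lmFit, eBayes, 2-sided, Benjamini-Hochberg over all 7883, threshold 0.05). The code was tested on simulated data. Permuting 2 and 2 samples exactly could reach no 2-sided p under 0.333. A floored group makes a fold a lower bound, written "at least". The number of arrays limits the precision. The members and lists were chosen with earlier results of these data known. All members are named. Of the related lists, genes with the smallest unadjusted p below 0.05 were named, up to 4 a list (1 pan-leukocyte gene is not reported here), and of the marker lists Lyz2 and Fcgr1 beyond that rule, chosen after their values were seen. Alternatives covered scaling, floor, filter, prior, probe set choice, the replicate block and each sample left out.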

Additional observations from a re-analysis of the deposited data

How the results depend on the processing

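No probe set passed limma's adjusted threshold as reported or under any alternative but the one with no filter on dim probe sets, which called 22 over the array and 1 among the members, Lat2. There many sets have 2 floored values and no spread. The replicate block (the labels' numbers 1 and 2, which share a correlation of deviations of -0.05 and are not known to pair samples) also gave 0 calls, with 987 probe sets at an unadjusted p below 0.05. Left out in turn, samples gave 0 calls each.

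The T and NK cell median of 0.53 was 0.39 with quantile normalization, 0.33 on a common median, 0.07 with no filter, 0.43 with the strict filter, 0.43 without shared or reduced probe sets and 0.99 aligned on hybridisation controls. With a sample left out it ranged from 0.33 to 0.57. With the lower floor of 5.05 all 15 tested genes of that list were higher, with a median of 0.59. Over all probe sets tested at that floor the median was 0.15. Some of the 15, such as Cd8b1, entered only through their 16-week values and had to come out higher. The B and plasma cell median ranged from 0.17 on a common median to 0.77 on the controls. Members wholly higher at 16 weeks numbered 22 with quantile normalization.

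Signs turned for weak differences. With quantile normalization Prf1 and Ighm 97577_f_at were each -0.12. On a common median Lat was -0.18, Prf1 -0.15, Cd79a -0.04, Ighm 97577_f_at -0.07 and Xbp1 -0.16. On the controls Ighm 93583_s_at was 0.45 and 93584_at 0.27. With a sample left out, the lowest and highest values were -0.07 and 0.73 for Cd3e, -0.15 and 0.24 for Lat, -0.11 and 0.26 for Prf1, -0.27 and 0.85 for Cd79b, -0.17 and 1.20 for Lat2 161899_f_at and -0.17 and 0.29 for Xbp1. For Ighm they were -0.29 and 0.13 (93583_s_at), -0.63 and 0.27 (93584_at), -0.08 and 0.35 (97577_f_at) and -0.05 and 0.40 (102159_at). The cause of these turns was not tested. No other tested member probe set took the opposite sign under the alternatives run.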
